A study of Mus musculus with 4 samples.

Results

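A pair of short mouse regions gave nuclear RNA signal at most of their probes in both embryonic stem cells (ESC) and neural progenitor cells (NPC). They are described here as references for active genes. The regions run from the first to the last probe at chr11:102764914-102787894 and chr15:78969621-78988212 (mm9). Their members are all non-control probes of a custom tiling array listed at these positions, in intervals chosen by the breadth of their signal. There are 255 such probes on chromosome 11 and 212 on chromosome 15, together 467 of the 48316 probes on the array. The 2 sets cover 66.6% and 68.4% of their spans, and the sequence in the gaps was not read. Each set makes up a whole tile (probes in a row, spaced by at most 50 kb), so no probe lies just outside either interval.

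The ESC were of the 46c line, a mouse stem cell line that carries a fluorescent reporter of the neural gene Sox1, grown in GMEM with supplement. The NPC were derived from 46c by the N2B27 protocol, which turns stem cells into neural progenitors in a defined medium. Each group held 2 samples, and each sample was read on 1 array in 1 colour, all on the same slide. RNA was taken with TRIzol from chromatin that had been prepared from nuclei without RNase A, then amplified and labelled by random priming, which keeps no strand. The labels leave unsaid whether replicates were separate cultures, and p-values here cover just the spread between these arrays, which may be technical. The labels do not say whether NPC were sorted, and in cultures of mixed cells fewer cells of a type and less RNA per cell cannot be told apart. No mm9 gene annotation was used here, so the cell types were not checked against marker genes, and exons and introns were not placed.

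Nuclear RNA holds newly made transcripts together with their introns. A tiling array of such RNA can therefore show signal along a whole transcribed unit and not only over exons. The description that came with the chromosome 15 interval calls it the Polr2f region, next to Sox10. Polr2f encodes a subunit common to the nuclear RNA polymerases I, II and III, which every growing cell needs. Sox10 encodes a transcription factor of the neural crest and of oligodendrocytes. In the order of protein-coding genes of the RefSeq table (GRCm38.p6), Polr2f lies between 1700088E04Rik and Sox10, followed outwards by Micall1 and Pick1. No gene name came with the chromosome 11 interval, and none was assigned from its position.

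The promoter of Polr2f is printed as the regulatory sequence of the gene that gives the chromosome 15 region its name. It runs from 250 bases before to 50 bases after the gene's start on the plus strand and comes from RefSeq (GRCm38.p6). It was not aligned to the array, whose positions are on mm9. The capitals mark a match to CCGGAAGT, a sequence recognised by some ETS family factors.
Polr2f: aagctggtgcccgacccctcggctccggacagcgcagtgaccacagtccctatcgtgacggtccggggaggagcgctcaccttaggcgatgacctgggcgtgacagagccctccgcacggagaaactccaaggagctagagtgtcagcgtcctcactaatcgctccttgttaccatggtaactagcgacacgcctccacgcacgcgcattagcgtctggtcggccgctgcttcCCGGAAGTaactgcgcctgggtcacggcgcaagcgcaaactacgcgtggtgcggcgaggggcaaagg
The motif was searched on both strands and occurs 1 time, on the plus strand. Of 32851 promoters of the same length in the RefSeq table, 3.89% hold it. The letters TATAAA, searched on both strands, are not in this window and are in 13.6% of the promoters. The Polr2f window holds 31 CG dinucleotides, against a median of 7 over all promoters.

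Both regions stood far above background on every array. On chromosome 11 the median intensity of the probes was 149 and 234 in ESC 1 and ESC 2, and 172 and 103 in NPC 1 and NPC 2. On chromosome 15 ESC had 44.6 and 54.1, and NPC had 43.2 and 40.2. The median over all probes of the array was between 8.87 and 17.6, and that of the negative control spots between 2.19 and 3.12. These are processed signals, with background subtracted and no scaling between arrays. Thus the chromosome 11 region was the brighter of the pair on each array.

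The share of probes that the scanner software marked as well above background was also high in both regions. This share was larger on chromosome 11 than on chromosome 15 on every array except NPC 2. On chromosome 11 it was 89.4% and 93.7% in ESC 1 and ESC 2, and 90.2% and 80.8% in NPC 1 and NPC 2. On chromosome 15 ESC had 75.5% and 83.0%, and NPC had 85.8% and 81.6%. The groups overlapped in both regions. Over all probes of the array the share was 43.6% ± 1.49 in ESC (SD, n = 2) and 54.2% ± 0.0995 in NPC (n = 2), and over the negative control spots it averaged 1.93%. The regions were chosen with this breadth of signal known. Both also lie in runs of windows where 50% or more of the probes gave signal in either group. Shares and levels are therefore a description and were not tested.

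For comparison between arrays, log2 intensities were expressed relative to the 75th percentile of those probes that were well above background on all 4 arrays. On this scale the chromosome 11 region had mean levels of -0.37 and 0.01 in ESC 1 and ESC 2, and of -0.56 and -1.27 in NPC 1 and NPC 2. Both NPC arrays lay below both ESC arrays, and NPC 2 was the lowest. The chromosome 15 region had levels of -1.87 and -1.72 in ESC, and of -2.05 and -2.15 in NPC. Here too both NPC arrays were the lower ones, with a narrow spread inside each group. The same order was seen in 23 of the array's 41 runs of windows with signal (56.1%).

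**Figure D1:**
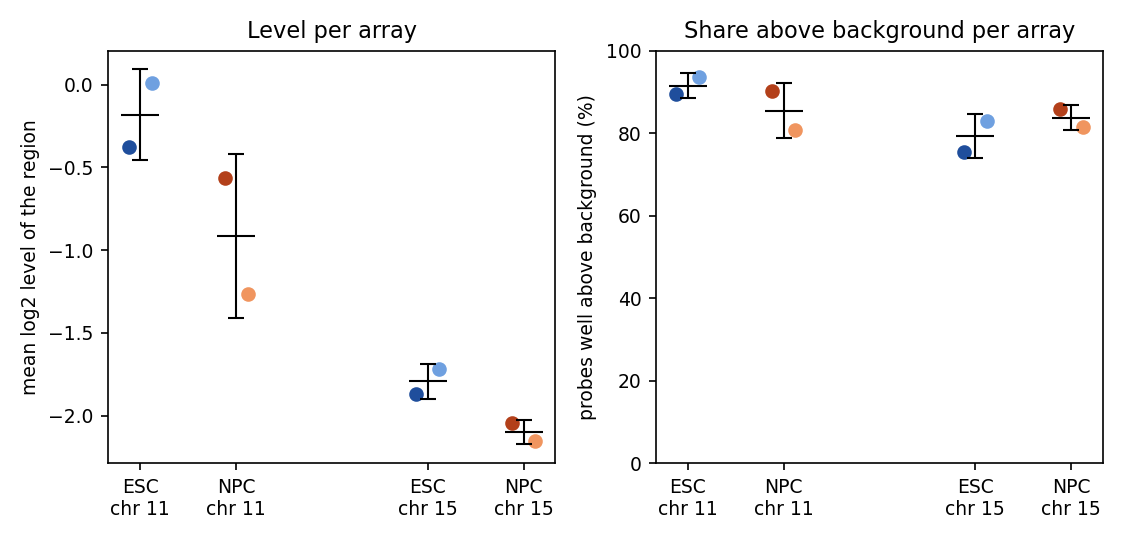
Mean log2 level of each region relative to the scaling percentile (left) and percent of its probes well above background (right), with 1 point per array and black bars for the mean ± SD (n = 2). The levels of the chromosome 11 region run from -1.27 to 0.01 and those of the chromosome 15 region from -2.15 to -1.72.

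Among the 39 tiles of the array, the chromosome 11 tile had the highest mean level in both cell types, -0.18 ± 0.27 in ESC (SD, n = 2) and -0.91 ± 0.50 in NPC. The next tiles in ESC were at -0.71 (chr6:125094615-125144984) and -0.91 (chr15:89181346-89210563). In NPC these 2 tiles were at -1.05 each, within the spread of the chromosome 11 tile, so the order at the top was not resolved there. The chromosome 15 region was at -1.79 ± 0.11 in ESC and -2.10 ± 0.07 in NPC, which placed it ninth in ESC and seventh in NPC. It was thus one of the brighter tiles, but well under the top group.

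Both regions were also high when cut into windows of 5 kb with at least 5 probes, of which the array has 964. The 5 windows of the chromosome 11 region lay between percentiles 94.8 and 99.1 of all window levels in ESC and between 81.5 and 99.0 in NPC. The 4 windows of the chromosome 15 region lay between percentiles 82.3 and 92.2 in ESC and between 77.1 and 88.3 in NPC. At the edges, 2 probes of chromosome 11 and 4 of chromosome 15 fell in windows with too few probes and entered only the means of whole regions.

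**Figure D2:**
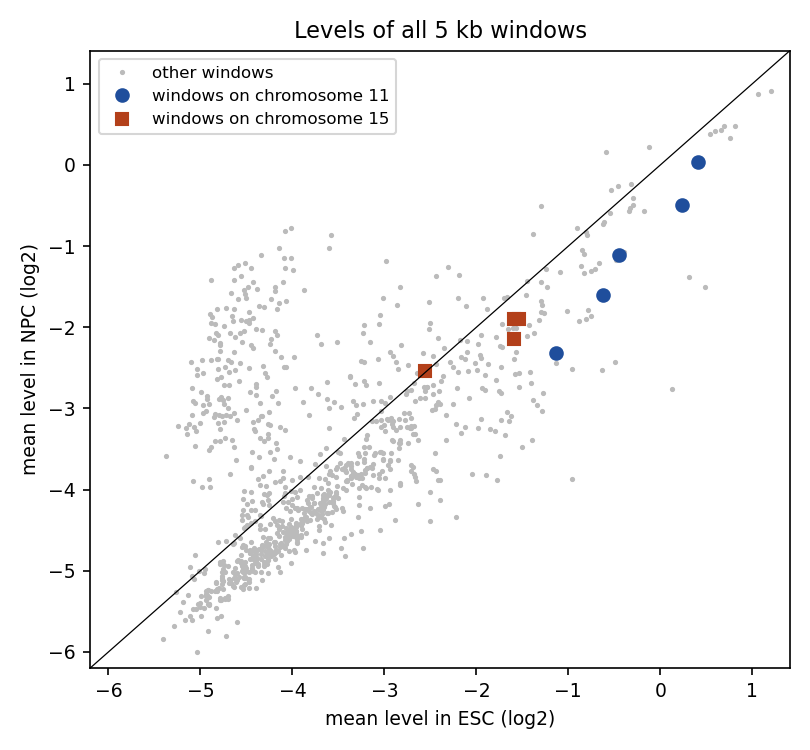
Mean log2 level of each of the 964 windows of 5 kb in ESC (x axis) and NPC (y axis), relative to the scaling percentile, with windows of the chromosome 11 region as blue circles, those of the chromosome 15 region as red squares, other windows in grey and a line of equal levels. The chromosome 11 windows sit in the upper right, between -1.13 and 0.41 in ESC.

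Along the chromosome 11 region, signal was highest at the start and lowest at the end in mm9 order. The window at 102765001 (62 probes) was at 0.13 and 0.68 in ESC 1 and ESC 2, and at 0.40 and -0.34 in NPC 1 and NPC 2. The window at 102785001 (30 probes) was at -1.23 and -1.03 in ESC, and at -2.05 and -2.59 in NPC. The middle windows at 102770001, 102775001 and 102780001 stepped down between these, with ESC means of 0.24, -0.45 and -0.63 and NPC means of -0.49, -1.11 and -1.60. Levels therefore fell from window to window in both cell types.

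Within each array, the first of these windows exceeded the last by 1.36 and 1.71 in ESC 1 and ESC 2, and by 2.46 and 2.24 in NPC 1 and NPC 2. A shift of a whole array leaves this measure as it is. The groups did not overlap, but straight-line slopes of most other tiles also separated the groups, in either direction. The separation is therefore not read as particular to this region. As a straight line over all probes of the region, the log2 level changed by -0.65 and -0.85 per 10 kb in ESC, and by -1.13 and -1.15 in NPC. The steeper decline in NPC amounted to -0.39 per 10 kb (SE 0.08), which did not pass in a limma fit over the slopes of all 39 tiles (adjusted p = 0.119). In that fit 0 tiles were called higher and 2 lower, or 5.13%. Without ESC 2 the difference was -0.49 and passed (adjusted p = 0.027), whereas it was -0.19 with normexp and quantile normalization (adjusted p = 0.145) and -0.23 with the authors' deposited values (adjusted p = 0.200). The slope was chosen as a measure after the profiles had been seen.

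**Figure D3:**
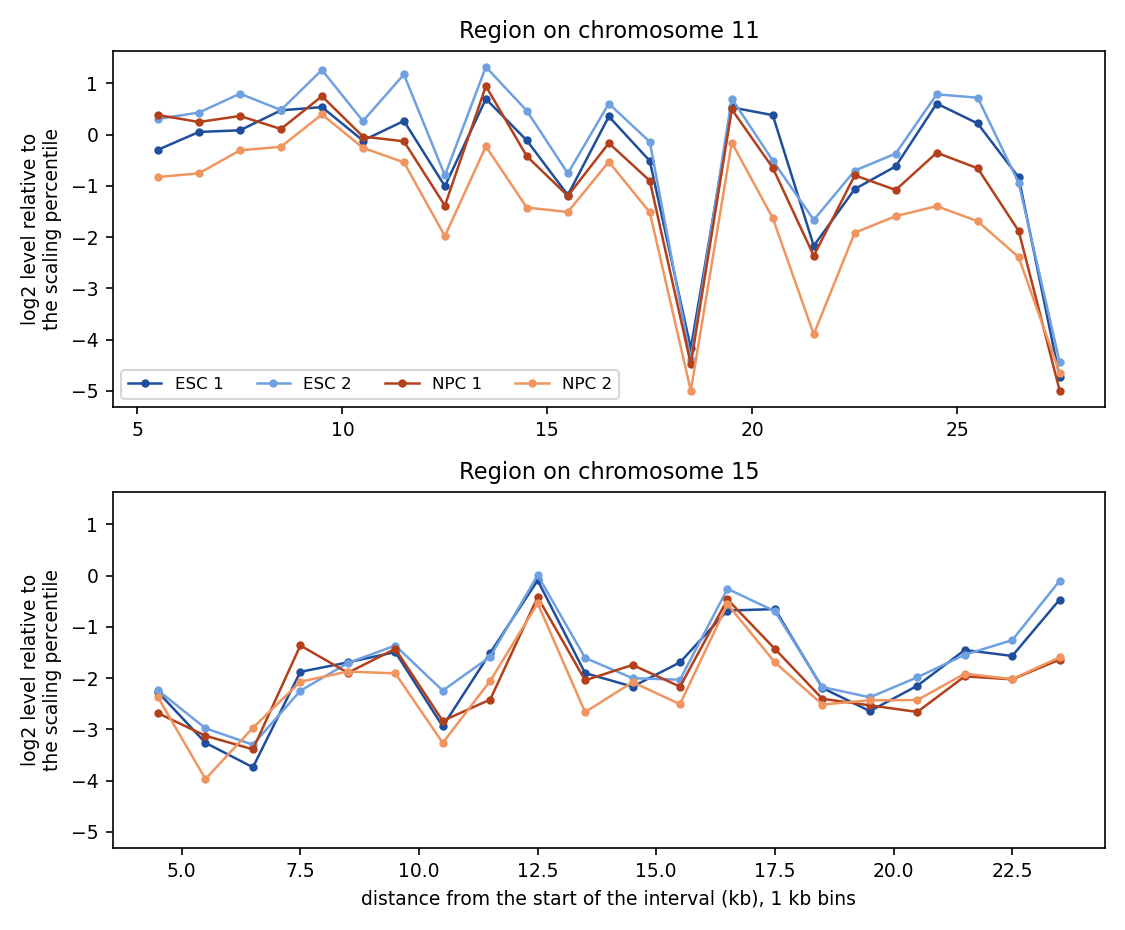
Mean log2 level in bins of 1 kb with at least 3 probes, relative to the scaling percentile, against distance in kb from the start of each interval, which lies before its first probe, with 1 line per array. The upper panel shows the decline along the chromosome 11 region and its dips to below -4, and the lower panel the flatter profile of the chromosome 15 region, with its top near 12.5 kb, another top near 16.5 kb and an upturn of the ESC lines in the last bin, near 23.5 kb.

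At a finer scale the chromosome 11 profile was uneven. In bins of 1 kb, the top bin in ESC was at 102773001, at 1.01 in ESC and 0.36 in NPC on average, and the top bin in NPC was at 102769001, at 0.90 and 0.57. The bins at 102778001 (3 probes) and 102787001 (6 probes) were dips, at -4.28 and -4.59 in ESC and at -4.74 and -4.82 in NPC. Of the 12 probes that were not well above background on any array, 4 lay side by side at the end of the tile, at chr11:102787562-102787894. The longest run of neighbouring probes above background on all arrays held 16 probes, at chr11:102776720-102777918. Most probes of the tile thus gave signal, which stopped before the last ones.

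Along the chromosome 15 region the first window was the dim one. The window at 78970001 (45 probes) was at -2.65 and -2.47 in ESC, and at -2.44 and -2.62 in NPC. The windows at 78975001 (52 probes), 78980001 (64 probes) and 78985001 (47 probes) were higher, with ESC means of -1.53, -1.59 and -1.59 and NPC means of -1.90, -1.90 and -2.15. Past the first window the level was nearly flat in ESC, where the 3 means differed by less than the spread between the arrays. In bins of 1 kb, the top bin in both cell types was at 78977001, at -0.04 in ESC and -0.48 in NPC. In ESC the last bin, at 78988001 (3 probes), came next, at -0.29 against -1.62 in NPC. The bin at 78981001 followed in ESC, at -0.47, and was next to the top in NPC, at -0.51. Of the 18 probes that were not above background on any array, none formed a run longer than 2 probes.

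The first window minus the last was -0.99 and -0.94 in ESC 1 and ESC 2, and -0.24 and -0.52 in NPC 1 and NPC 2. The groups did not overlap here either, as in the slopes of most other tiles. As a straight line, the level rose by 0.62 and 0.59 per 10 kb in ESC, and by 0.27 and 0.39 in NPC. The difference in slope was -0.28 per 10 kb (SE 0.05) and did not pass over the 39 tiles (limma, adjusted p = 0.104). It was -0.13 both with normexp and with the authors' deposited values (adjusted p = 0.0647 and 0.339). In both regions, then, the end with higher mm9 positions was lower in NPC relative to the start than in ESC, by values that did not pass.

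Single probes varied far more than windows did. Over the probes of a region the SD of the ESC mean was 2.05 on chromosome 11 and 1.95 on chromosome 15, on the log2 scale. Profiles nevertheless repeated between arrays, with Spearman coefficients across probes of 0.917 and 0.824 for the ESC and NPC pairs on chromosome 11, and 0.919 and 0.810 on chromosome 15. Between cell types they ranged from 0.762 to 0.885 and from 0.767 to 0.879. Probes share arrays and sequence-dependent hybridisation, and are not independent replicates. Adjacent probes resembled each other only loosely, with Pearson coefficients in ESC of 0.463 over 194 pairs on chromosome 11 and 0.266 over 172 pairs on chromosome 15.

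The brightest probe of the chromosome 11 region, at chr11:102776132, was at 3.59 and 4.23 in ESC, and at 3.48 and 4.63 in NPC. The probe at chr11:102764974, near the start of the tile, followed at 3.58 and 3.82 in ESC, and 3.63 and 3.25 in NPC. The third, at chr11:102773243, was at 3.56 and 2.99 in ESC, and 2.75 and 3.38 in NPC. In these 3 probes the cell types overlapped. On chromosome 15 the top probes were those at 78982045, 78984490 and 78981923. The first was at 2.40 and 3.09 in ESC, and 1.58 and 3.98 in NPC, again with overlap. The second was at 2.80 and 2.43 in ESC, and at 2.34 and 1.91 in NPC, with no overlap (adjusted p = 0.421). The third was an outlier spot on NPC 2 and was left out there. No spot of either region was saturated.

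Set against the whole array, neither region as a whole passed the test for a change between cell types. NPC minus ESC was -0.73 (SE 0.27) over the chromosome 11 region, a 1.66-fold higher level in ESC (95% interval 1.03 to 2.69). Its limma adjusted p over 41 stretches was 0.0583, a stretch being a run of at least 3 adjacent windows chosen for signal as above. Both NPC arrays were below both ESC arrays, as in 23 of the 41 stretches (56.1%), and 41.5% of stretches were called lower and 24.4% higher. These 17 lower and 10 higher stretches became 24 and 4 under the all-probe percentile, and 5 and 15 when the array medians of control spots named SRN set the scale. The region itself was then at -1.12 (adjusted p = 0.0126) and -0.31 (adjusted p = 0.389). The median change of all 964 windows was -0.34 under this scaling, so relative to the array the region changed by -0.39. NPC 2 lay well below NPC 1 here: the change was -0.38 without NPC 2 (adjusted p = 0.00274) and -1.09 without NPC 1 (adjusted p = 2.83e-11), and it was -0.93 without ESC 1 (adjusted p = 0.0359) and -0.54 without ESC 2 (adjusted p = 0.238). With 1 array left out the fit leans on the spread pooled over all stretches.

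Over the chromosome 15 region NPC minus ESC was -0.31 (SE 0.13), a 1.24-fold higher level in ESC (95% interval 0.992 to 1.54, limma adjusted p = 0.0747), and it turned to 0.12 on the scale of the SRN medians. Relative to the median of all windows it was at 0.03. It passed without NPC 1 (-0.36, adjusted p = 0.00369) and without NPC 2 (-0.25, adjusted p = 0.0418), and missed without ESC 1 (-0.38, adjusted p = 0.376) and without ESC 2 (-0.23, adjusted p = 0.617). Under the main scaling the chromosome 15 region thus moved about as the median window of the array did, though most windows were dimmer than the region. The tiles next to it in ESC level differed. From ESC to NPC, chr5:143659451-143709345 went from -1.69 to -2.37 and chr13:29038235-29052781 from -2.10 to -1.95. The chromosome 15 region fell further than the median window with normexp (-0.28 against -0.13), the authors' deposited values (-0.57 against -0.43) and medians over probes (-0.42 against -0.29). With dim probes left out it was at -0.29 against -0.33.

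The difference between the regions does not depend on a shift of whole arrays. Chromosome 11 minus chromosome 15 was 1.495 and 1.73 in ESC 1 and ESC 2, and 1.48 and 0.89 in NPC 1 and NPC 2. The difference fell by 0.43 from ESC to NPC, and NPC 1 was just below ESC 1. Without NPC 2 it changed by -0.13, and without NPC 1 by -0.73. An exact permutation test of 2 against 2 arrays cannot go below p = 0.333. The difference of the changes was -0.20 with normexp, -0.22 with medians over probes and -0.45 with dim probes left out. With the authors' deposited values, whose ESC 1 column does not follow its own scanner file, it was -0.10.

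By window, 1 of 5 on chromosome 11 and 1 of 4 on chromosome 15 were called lower, and none was called higher (limma, adjusted p under 0.05). Over the array 29.3% of windows were called lower and 22.0% higher. These 282 lower and 212 higher windows became 622 and 195 when the percentile was taken over all probes, 65 and 226 when it left out the tile on chromosome 12, and 67 and 278 when SRN medians set the scale. Both NPC arrays were below both ESC arrays in 4 of the 5 windows and in 3 of the 4, against 58.2% of all windows, and above them in 0, against 27.7%. At an unadjusted p under 0.05 the lower windows were 2 and 1, with 0 higher, while the array had 381 lower and 229 higher. With 5 and 4 windows, these counts are not read as a departure from the shares over the array.

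The called window of chromosome 11 was the last, at 102785001, where the level fell by 1.19 (SE 0.23, adjusted p = 0.0184), a 2.28-fold higher level in ESC. Its probes well above background made up 80% on each ESC array, and 70% and 66.7% in NPC. The call was kept under every alternative except those without ESC 1 (-1.29, adjusted p = 0.123) and without ESC 2 (-1.09, adjusted p = 0.158), in both of which 0 windows of the whole array were called. At an unadjusted p under 0.05 those fits had 131 and 113 lower windows. Over the alternatives that kept the call, the change ran from -1.57 with the percentile over all probes to -0.74 with normexp, and it was -0.76 with SRN medians and -0.90 per SRN spot. The change in the other windows, from the first on, was -0.37 (SE 0.33), -0.73 (SE 0.31), -0.66 (SE 0.22) and -0.98 (SE 0.37), with adjusted p-values of 0.360, 0.103, 0.0593 and 0.0794. The first of these turned to 0.053 on the scale of the SRN medians. In 1 kb bins the widest gaps between cell types were at 102784001 and 102785001, where ESC averaged 0.69 and 0.47 and NPC -0.88 and -1.17.

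The called window of chromosome 15 was also the last, at 78985001, with -1.66 and -1.52 in ESC and -2.20 and -2.10 in NPC. The change was -0.56 (SE 0.14, adjusted p = 0.0322), and the call was lost under 9 of 17 alternatives, among them without ESC 1 (-0.63, adjusted p = 0.160) and without ESC 2 (-0.49, adjusted p = 0.207). The change was smaller at -0.13 with SRN medians (adjusted p = 0.645), at -0.27 with the median change per SRN spot (adjusted p = 0.246) and at -0.34 without the chromosome 12 tile (adjusted p = 0.166). The other windows, from the first on, were at 0.02 (SE 0.15), -0.36 (SE 0.16) and -0.31 (SE 0.14), with adjusted p-values of 0.901, 0.110 and 0.114. The last 2 of these were at 0.063 and 0.12 on the scale of the SRN medians.

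**Figure D4:**
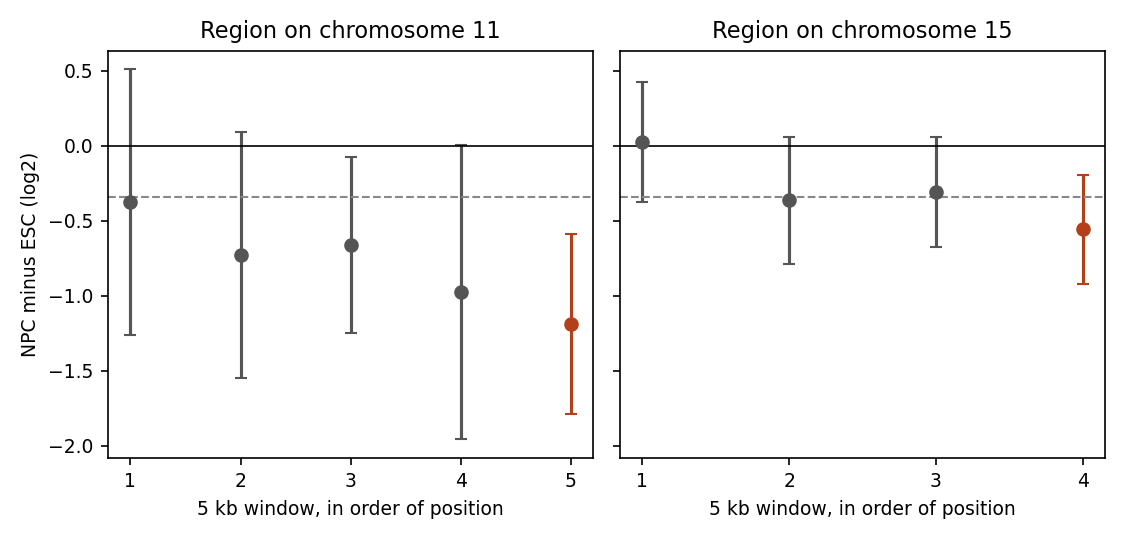
NPC minus ESC on the log2 scale for each 5 kb window, in order of position, with 95% intervals from the limma fit over all 964 windows. Red points passed at an adjusted p under 0.05, the solid line is 0, and the dashed line is the median change of all windows, -0.34.

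Of single probes, 5 of the 252 tested on chromosome 11 and 3 of the 210 on chromosome 15 were called lower, and none higher, against 1.58% lower and 10.7% higher over the array (limma, adjusted p under 0.05). At an unadjusted p under 0.05 there were 30 lower and 1 higher on chromosome 11, and 13 lower and 6 higher on chromosome 15, while the array had 3314 lower and 8113 higher of 47900. Both NPC arrays were below both ESC arrays in 104 and 79 of these probes, and above them in 6 and 31, where the array had 39.7% below and 24.9% above. The median probe change was -0.51 on chromosome 11 and -0.26 on chromosome 15, against -0.25 over all probes tested. Without NPC 1 the lower calls were 43 and 19, and without NPC 2 they were 8 and 7. Array-wide lower calls rose too, from 759 to 3478 and 1454 in these fits. Without ESC 1 or ESC 2 the lower calls were fewer on chromosome 11 and no more than in the main fit on chromosome 15. Over the array they stayed near the 759 of the main fit. Without ESC 2 a few probes of each region were also called higher, a smaller share than over the array.

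Lower calls were about as frequent in both regions as over the array, and are not read as a departure from it. Some of the called probes stood alone among their neighbours. The probe at chr11:102771883-102771942 was at 1.82 and 3.16 in ESC, and at -5.98 and -3.05 in NPC, where it was well above background on 1 of 2 arrays. The probes next to it on either side, at 102771823 and 102771943, had changes of 1.11 and 1.43, which were the 2 largest rises on chromosome 11 among probes above background on all arrays and did not pass (adjusted p = 0.368 and 0.199). At chr11:102785974-102786033 ESC were at 0.98 and 1.12, and NPC at -4.51 and -3.46, above background on 1 of 2 arrays. Its neighbours also had changes below 0, at -1.53 and -1.63.

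At chr15:78978715-78978774 ESC were at 1.75 and 2.26, and NPC at -4.43 and -2.25, above background on 1 of 2 arrays, while the changes of its neighbours were -2.61 and 0.50. The probe at chr15:78988031-78988090, near the end of the tile, was above background on all arrays, at 0.23 and 1.08 in ESC and at -3.42 and -2.47 in NPC. It had the largest fall of the region among such probes, -3.61 (SE 0.53, adjusted p = 0.0266), between neighbours with changes of 0.38 and -0.24. The remaining called probes were smaller changes or dim. The one at chr11:102776252 changed by -1.60, and that at chr11:102787121 was not well above background in NPC. The latter was 3.07-fold higher in ESC when NPC was set to the dimmest signal that counted as above background. Those at chr11:102772452 and chr15:78987848 were dim in both groups, above background on 1 and 0 of the 4 arrays, and their sizes are not measured. What sets a single probe apart from its neighbours was not tested.

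Rises among the probes above background on all arrays stayed below the threshold. After the pair flanking 102771883, the next on chromosome 11 was at chr11:102765274, at 0.83 (adjusted p = 0.421). On chromosome 15 the largest were 2.56 at chr15:78984429, 1.28 at chr15:78972550 and 1.12 at chr15:78979969 (adjusted p = 0.381, 0.245 and 0.157). The value at 78984429 rested on NPC 2, at 1.42 against -2.37 in NPC 1. Among the largest falls that did not pass, NPC 2 was far below NPC 1 at chr11:102767558 (-1.84 against 1.95), chr11:102769090 (-3.97 against -0.03), chr15:78978500 (-3.88 against 0.79) and chr15:78981801 (-3.84 against -1.20). At chr11:102775888 both NPC arrays were low, at -0.54 and 0.87, against 2.12 and 3.49 in ESC (adjusted p = 0.128).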

How the data were processed

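Nuclear RNA of 2 ESC and 2 NPC samples was read on 1-colour arrays, with groups and replicate numbers from the titles. Spot intensity values were made with Agilent Feature Extraction 11.5.1.1, per the file headers; the processed signal is background-subtracted, has a floor and is not scaled between arrays. The software also marked, per the file headers, spots well above background, saturated or outlier (unit other). The header names mm9. The authors' deposited series table holds log2 values, as judged from the values. The submitters' processing notes name limma; further steps were not stated. In that table the ESC 1 column did not follow its own scanner file (Spearman 0.873, against 1 for the other arrays), so it served only as an alternative.

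Control spots (3188) and outlier spots were left out. Log2 processed signal minus each array's 75th percentile (15356 probes well above background on all arrays) was averaged over windows, stretches and regions and fitted with limma 3.58.1 in R 4.3.3 over the whole array (lmFit, eBayes, Benjamini-Hochberg). The fit was tested on simulated data. Figures used matplotlib 3.10.9. The number of arrays limits the precision. The files hold no gMeanSignal column, so normexp used the median signal. Members and lists were chosen with earlier results of these data known. Named are all windows of the regions and, per region, the 3 brightest probes and the 3 largest rises and falls among probes above background on all arrays; called probes were added after their values were seen. Alternatives covered scaling, the authors' values, dim probes, medians, window size, the prior, a replicate block, whole tiles and each array left out.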

Additional observations from a re-analysis of the deposited data

Results flagged for a closer look

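The control spots named SRN, which served only as an alternative scale, carry signal: 56.4% ± 1.23 (SD over 4 arrays) were well above background, while the negative control spots averaged 1.93%. The labels do not say what they hold.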

How the results depend on the processing

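The chromosome 11 region stayed below 0 in all 17 alternatives and passed in 7, and the chromosome 15 region stayed below 0 in 16 and passed in 8. Beyond the fits with an array left out, chromosome 11 passed under the all-probe percentile (-1.12), the median over windows (-0.93), normexp (-0.48) and the replicate block (-0.73). It shrank and missed with the SRN medians (-0.31, adjusted p = 0.389), per SRN spot (-0.44, 0.192) and without the chromosome 12 tile (-0.52, 0.240), where chromosome 15 was at 0.12, -0.017 and -0.092. Chromosome 15 passed under the all-probe percentile (-0.69), the authors' values (-0.57), the median over probes (-0.42), the median over windows (-0.51), normexp (-0.28) and whole tiles (-0.31). Over the array, 17 of 41 stretches were lower in the main fit. They were 24 under the all-probe percentile, 23 under the median over windows, 22 with the authors' values and 21 with normexp. The median over probes had 13, the replicate block 16 and whole tiles 20 of 39. Passing in these settings is therefore not read as particular to the regions. With a single array dropped, its lone partner borrowing the spread of the other group, the values were -1.09 to -0.38 and -0.38 to -0.23 for the regions, slope differences of -0.49 to -0.30 and -0.34 to -0.22, 0 to 4 and 0 to 2 lower windows with 0 higher, and 2 to 43 and 2 to 19 lower probes with 0 to 4 and 0 to 3 higher. The window at 78970001 ran from -0.067 to 0.112 in these fits.

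Chromosome 11 had 5 lower windows under the all-probe percentile, 4 with the authors' values, the median over windows or normexp, 2 with dim probes left out and 3 of 12 at 2 kb. Lower windows over the array numbered 282 of 964 in the main fit. They were 622 under the all-probe percentile, 445 with the authors' values, 540 under the median over windows and 353 with normexp. With dim probes left out they were 254 of 916, and at 2 kb 334 of 2272. On chromosome 15 the lower windows were 3 under the all-probe percentile, the authors' values, the median over windows or normexp. They were 0 with either SRN scaling, without dim probes, under the median over probes, the percentile without the chromosome 12 tile, the replicate block, the trend prior or 2 kb windows. The array had 67 lower windows with the SRN medians, 68 per SRN spot and 65 without the chromosome 12 tile. It had 148 under the median over probes, 144 with the replicate block and 336 with the trend prior. Lower probes on chromosome 11 numbered 12 (normexp), 11 (percentile over all probes), 10 (no dim probes) and 9 (median over windows), and 3, 3, 3, 3 and 1 with the authors' values, the median change per SRN spot, the percentile without the chromosome 12 tile, the replicate block and the SRN medians. On chromosome 15 normexp gave 5 lower, and the SRN medians 2 higher, where the array had 6302 higher. The window at 78970001 turned to -0.36 under the all-probe percentile, -0.36 with the authors' values, -0.038 without dim probes, -0.18 under the median over windows and -0.13 with normexp. With the SRN medians, 102765001, 78975001 and 78980001 turned to 0.053, 0.063 and 0.12. The cause was not tested. Shared replicate numbers do not show pairing here: the deviations of same-numbered arrays correlated at 0.047 over windows. The block changed no other window call of the regions than the one on chromosome 15.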
